A study of Mus musculus with 5 samples.

Results

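The AP-1 transcription factors were examined in myeloid progenitors of Bcor-mutant mice. The set comprised 10 genes, namely Fos, Fosb, Fosl1, Fosl2, Jun, Junb, Jund, Batf, Batf3 and Atf3, which were taken by symbol from the 52550 genes of the count table. All 10 were found once each, and 7 of them had enough counts to be tested. Male mice of 2 genotypes were compared. The BcorΔE9-10 group (n = 3 libraries) had the genotype scl-Cre-ERT +; Bcorfl/y, in which excision of exons 9 and 10 leaves a truncated Bcor protein without its PUFD domain. The BcorWT group (n = 2 libraries) had the genotype scl-Cre-ERT +; Bcorwt/y. Mice of both groups therefore carried the tamoxifen-dependent Cre, which an Scl element restricts to haematopoietic stem cells, and both received 1 mg tamoxifen on 5 days at an age of 3 to 6 months. Lin-cKit+Sca1- (KL) bone marrow cells, the gate that holds committed myeloid progenitors, were sorted 20 weeks later and sequenced from the 3′ ends of their transcripts.

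AP-1 is a dimer of basic leucine zipper proteins. Fos proteins cannot pair with each other and bind DNA as partners of Jun proteins, which can also form dimers among themselves, whereas Batf and Atf proteins join the same network with other target preferences. Several of the genes, Fos above all, are immediate-early genes, transcribed within minutes of growth factor, cytokine or stress signals from promoters already occupied by their regulators, and their transcripts are short-lived. In blood-forming tissue AP-1 is known for its part in myeloid differentiation and in the response of cells to cytokines.

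Fos and Fosb were higher in BcorΔE9-10 cells. Fos rose 3.28-fold, with no overlap between the groups and a call in each of 15 alternative analyses. Fosb rose 2.20-fold, with overlapping groups and a call that was lost in 4 of the 15. By contrast, neither Jun nor its relatives Junb and Jund passed the test in either direction. Fosl2 was the member nearest to a fall. Fosl1, Batf3 and Atf3 were barely detected. Whether the Fos and Jun genes differed from each other in response was not tested, and the values of each are given by family.

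The proximal promoters of the members that passed the test, Fos and Fosb, are shown beside that of Jun, a partner gene, which did not. Each runs 5′ to 3′ on the strand of the gene, from 250 bases before the RefSeq transcription start to 50 bases after it (GRCm38.p6). They lie at chr12:85473640-85473939 (Fos, plus strand), chr7:19309996-19310295 (Fosb, minus strand) and chr4:95052173-95052472 (Jun, minus strand). Capitals mark exact matches, on either strand, to TGACG, the shared core of cyclic AMP response elements, to TGACATCA, the site known from the Jun promoter, and to TATAAA.
Fos: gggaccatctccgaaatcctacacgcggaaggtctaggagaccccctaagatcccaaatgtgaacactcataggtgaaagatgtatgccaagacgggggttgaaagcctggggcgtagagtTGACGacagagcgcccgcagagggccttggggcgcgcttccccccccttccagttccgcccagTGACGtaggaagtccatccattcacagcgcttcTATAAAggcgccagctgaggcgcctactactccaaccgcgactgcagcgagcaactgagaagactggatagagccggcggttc
Fosb: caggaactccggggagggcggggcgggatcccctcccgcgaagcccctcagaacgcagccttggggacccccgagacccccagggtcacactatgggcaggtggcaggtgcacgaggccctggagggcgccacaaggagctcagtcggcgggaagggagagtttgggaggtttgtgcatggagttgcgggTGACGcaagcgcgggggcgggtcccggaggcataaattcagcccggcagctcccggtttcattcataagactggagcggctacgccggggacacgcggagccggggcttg
Jun: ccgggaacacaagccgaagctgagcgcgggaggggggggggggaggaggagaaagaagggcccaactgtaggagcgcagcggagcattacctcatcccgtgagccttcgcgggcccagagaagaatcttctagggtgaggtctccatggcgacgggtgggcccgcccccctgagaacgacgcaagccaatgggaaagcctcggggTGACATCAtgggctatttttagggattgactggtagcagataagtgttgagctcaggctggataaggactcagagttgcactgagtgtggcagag

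Promoter sequence was held for 9 of the 10 members, all but Fosl1. The RefSeq start used for the window is within 51 bases of the start of the counted gene for Fos, Fosb, Jun, Junb and Batf and 567 and 671 bases inside it for Batf3 and Fosl2. It lies 34706 bases inside the gene for Atf3 and 1210 bases upstream of it for Jund, whose window does not touch the gene as counted. The core TGACG was present in 5 of these 9 (Fos, Fosb, Junb, Batf and Atf3) and in 20.8% of 32851 mouse promoters of the same length. Fos held it at 2 places, which begin 129 and 66 bases before the start, and Fosb held it once, beginning 60 bases before the start. Jun carried TGACATCA, which 3.62% of promoters hold. The full palindrome TGACGTCA was in none of the 9 members and in 1.79% of all promoters, and the AP-1 site TGACTCA was in none of the 9 and in 5.2% of all promoters. TATAAA was in Fos and Junb and in 13.6% of promoters. The CArG box of serum response factor was also in none of these windows, against 1.63% of all promoters. The element of this kind that is known for Fos lies further upstream than the window. These matches describe letters only, since binding was not measured in these libraries.

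The libraries held between 5998924 and 8303999 counts. Bcor itself had 168 to 196 counts in the mutant and 83 and 109 in BcorWT, but a count at the transcript end does not read the removed exons and checks nothing. Kit, which defines the gate, had 452, 307 and 423 counts against 128 and 132, and all 10 progenitor markers passed the expression filter. Genes of maturing neutrophils were also abundant although the gate removes Gr-1+ and CD11b+ cells, with a summed level of the 10 neutrophil markers between 149259 and 173147 CPM (counts per 1e+06 counts, scaled by TMM factors) in BcorΔE9-10 and between 215910 and 227825 CPM in BcorWT. In bulk samples a change in the share of cells that express a gene and a change in its RNA per cell cannot be told apart. The BcorWT libraries differed from each other more than any pair of mutant libraries did (chi-square per gene 11.6 against 6.01 to 7.01), and every tested AP-1 member was higher in BcorWT library 1 than in library 2. Values of the members are therefore also given without one or the other BcorWT library where that changed them.

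Fos encodes the founding Fos protein and lies on chromosome 12 (mm10, 85473890 to 85477273, plus strand), with no overlapping gene annotated. Its counts were 2829, 2043 and 1788 in BcorΔE9-10, or 334, 333 and 209 CPM. In BcorWT they were 757 and 470, or 107 and 69.6 CPM. The lowest mutant library stood above the highest BcorWT library, so the groups did not overlap. Fos averaged 292 ± 72.1 CPM (SD, n = 3) in BcorΔE9-10 and 88.6 ± 26.8 CPM (SD, n = 2) in BcorWT. The difference on the log2 scale was 1.71 (SE 0.205, 95% interval 1.28 to 2.15, limma adjusted p = 9.78e-05), or 2.43-fold to 4.43-fold on the linear scale. Fos was called, meaning a limma adjusted p under 0.05, in all 15 alternative analyses, with log2 fold changes between 1.41 and 2.02. The extremes were the fits without BcorWT library 2 and without BcorWT library 1. The study singled out Fos partly on these libraries, so its call is not independent of that choice.

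Fosb, a close relative of Fos that also pairs with Jun proteins, lies on chromosome 7 (19302696 to 19310051, minus strand). Its counts were 926, 500 and 456 in BcorΔE9-10 and 400 and 147 in BcorWT. These correspond to 109, 81.6 and 53.3 CPM against 56.8 and 21.8 CPM. The groups overlapped, since mutant library 3 was just below BcorWT library 1, and the BcorWT libraries differed from each other by more (2.60-fold) than the fitted difference between the groups (2.20-fold). Fosb averaged 81.4 ± 28.1 CPM (SD, n = 3) against 39.3 ± 24.8 CPM (SD, n = 2), with a log2 fold change of 1.14 (SE 0.317, 95% interval 0.47 to 1.81, limma adjusted p = 0.0312). The call for Fosb rested on single libraries. It was lost without mutant library 1 (log2 fold change 0.88, limma adjusted p = 0.0817), without mutant library 2 (1.10, 0.0841) and without BcorWT library 2 (0.46, 0.278), and also with DESeq2 (1.03, adjusted p = 0.313), while without BcorWT library 1 the log2 fold change was 1.83.

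Fosl2, which encodes Fra-2, a Fos-type protein that lacks the strong activation domain of Fos, lies on chromosome 5 (32135801 to 32157842, plus strand). It was the only tested Fos-family gene with lower mean CPM in the mutant. Its counts were 430, 271 and 556 in BcorΔE9-10 and 707 and 423 in BcorWT, or 50.8, 44.2 and 65.0 CPM against 100.4 and 62.7 CPM. Mutant library 3 lay just above BcorWT library 2, so the groups overlapped by 1 library. The log2 fold change was -0.58 (SE 0.190, 95% interval -0.98 to -0.18), with a limma adjusted p = 0.0632 that missed the threshold. Fosl2 passed it with DESeq2 (-0.63, adjusted p = 0.0320) and with no expression filter (-0.57, limma adjusted p = 0.0368). It also passed after GC correction (-0.65, 0.0420), without mutant library 3 (-0.75, 0.0483) and without BcorWT library 2 (-0.91, 0.00122). Without BcorWT library 1 it was -0.24 (limma adjusted p = 0.544).

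Fosl1, which encodes Fra-1, another Fos-type protein without that activation domain, lies on chromosome 19 (5447703 to 5455945, plus strand) and was too low to test. It had 3, 0 and 5 counts in BcorΔE9-10 and 17 and 1 in BcorWT. Most of its counts thus came from BcorWT library 1, and the 0 in mutant library 2 allows up to 3 counts, or 0.490 CPM, as counting error alone.

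**Figure D1:**
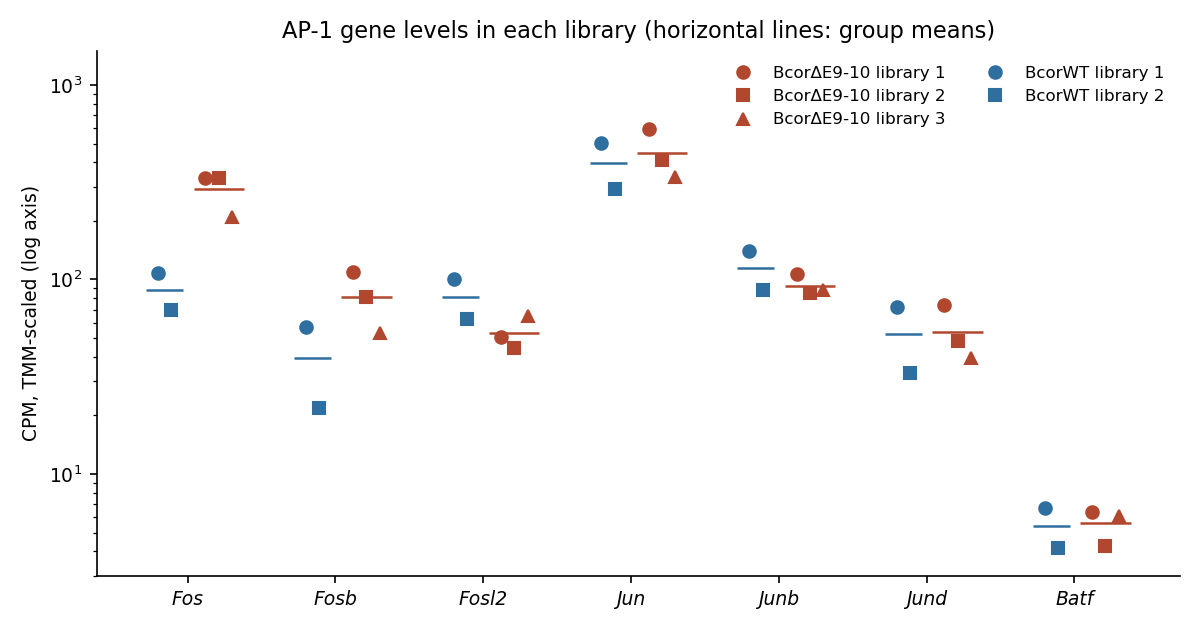
Level of the 7 tested AP-1 genes in each library, in CPM scaled by TMM factors on a log axis, with BcorΔE9-10 in red, BcorWT in blue and a horizontal line at each group mean. The Fos groups do not overlap (209 to 334 against 69.6 to 107 CPM), and BcorWT library 1 lies above BcorWT library 2 for every gene shown.

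Jun, which encodes c-Jun, a partner with which Fos proteins bind DNA, lies on chromosome 4 (95049034 to 95052222, minus strand). It had 5000, 2522 and 2870 counts in BcorΔE9-10 and 3524 and 1978 in BcorWT. At 591, 412 and 335 CPM against 500.4 and 293 CPM the libraries of both groups were interleaved. The log2 fold change was 0.18 (SE 0.206, 95% interval -0.26 to 0.62, limma adjusted p = 0.630). On the linear scale this interval runs from 0.836-fold to 1.53-fold. Its sign turned without mutant library 1 (-0.049) or without BcorWT library 2 (-0.20). The antisense gene Junos overlaps Jun, with 10 to 32 counts in a library.

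Junb, a Jun-family protein known in myeloid cells for restraining proliferation, lies on chromosome 8 (84974484 to 84978718, minus strand). It had 898, 521 and 753 counts against 984 and 599, or 106, 85.0 and 88.0 CPM in BcorΔE9-10 and 139.7 and 88.8 CPM in BcorWT. The groups overlapped, with mutant library 1 between the BcorWT libraries. The log2 fold change was -0.26 (SE 0.167, 95% interval -0.62 to 0.09, limma adjusted p = 0.340). Without BcorWT library 2 it was -0.58 and passed the threshold (limma adjusted p = 0.0156), and without BcorWT library 1 it was 0.060 (0.889). Junb overlaps Prdx2 on the other strand, a gene with 385 to 592 counts. Whether the counting used strand is not given in the sources used here, so reads of the 2 genes may be mixed.

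Jund, the Jun-family gene best known for steady rather than induced expression, lies on chromosome 8 (70698949 to 70700616, plus strand). Its counts were 627, 297 and 336 against 508 and 223, or 74.1, 48.5 and 39.3 CPM in BcorΔE9-10 and 72.1 and 33.0 CPM in BcorWT. The groups spanned nearly the same range, and the log2 fold change was 0.09 (SE 0.273, 95% interval -0.49 to 0.67, limma adjusted p = 0.876). The sign of the Jund value turned without mutant library 1 (-0.18) or BcorWT library 2 (-0.46).

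Batf, a small zipper protein without an activation domain that pairs with Jun proteins and is best known from lymphocytes, lies on chromosome 12 (85686669 to 85709087, plus strand). It had 54, 26 and 52 counts in BcorΔE9-10 and 47 and 28 in BcorWT, or 6.38, 4.24 and 6.08 CPM against 6.67 and 4.15 CPM. The groups overlapped fully, with a log2 fold change of 0.08 (SE 0.350, 95% interval -0.66 to 0.82, limma adjusted p = 0.914). The sign of the Batf value also turned without mutant library 1 (-0.017) or without BcorWT library 2 (-0.24).

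Batf3, required for a subset of conventional dendritic cells, lies on chromosome 1 (191097847 to 191108945, plus strand) and had 3, 1 and 5 counts against 0 and 6. Atf3, a stress-induced factor that binds cyclic AMP response elements, lies on the same chromosome (191170296 to 191218039, minus strand) and had 7, 6 and 5 counts against 4 and 0. Atf3 did not overlap between the groups, but 4 counts against 5 are at the edge of what these libraries resolve, and the 0 in BcorWT library 2 allows up to 0.445 CPM. Neither gene could be tested. Xcr1, which marks the dendritic cells that depend on Batf3, had 4, 0 and 4 counts against 2 and 0.

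Of the 10 members, 2 were called higher (Fos and Fosb), 5 were tested without a call and 3 were too low to test. Across all 11766 genes tested, 10.1% were called in either direction, 6.02% higher and 4.09% lower in BcorΔE9-10. Each of the 7 tested members had at least 26 counts in every library. Fos alone among them had CPM ranges that did not overlap between the groups, with the mutant above, as was so for 22.6% of all genes tested. A further 20.3% of genes did not overlap with the mutant below, a pattern that no tested member showed, and 42.8% did not overlap in either direction. Separation of the ranges is therefore frequent in these 5 libraries, and the count of members that show it lies below that share.

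**Figure D2:**
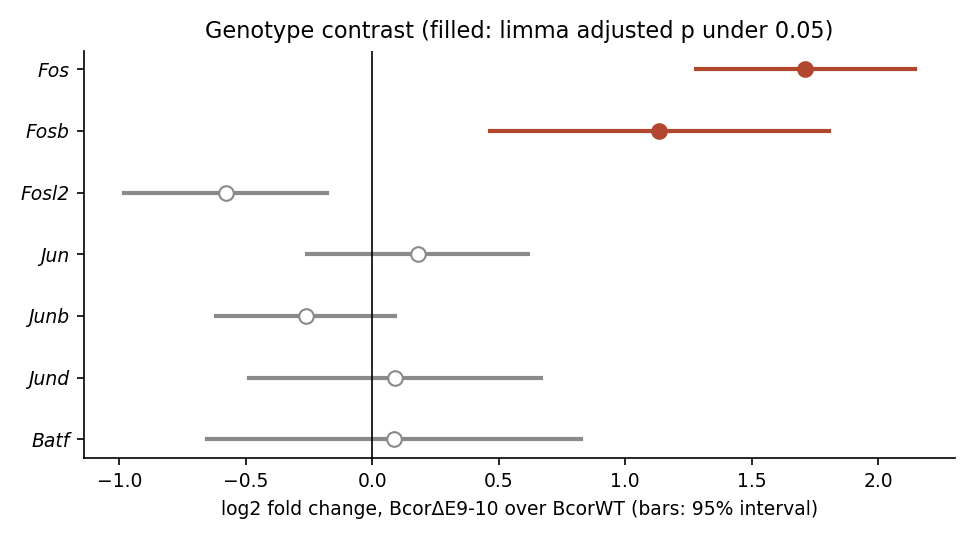
Genotype contrast for the 7 tested AP-1 genes, as log2 fold change of BcorΔE9-10 over BcorWT with its 95% interval from the limma fit, filled where the adjusted p was under 0.05. Fos (1.71) and Fosb (1.14) are filled, the interval of Fosl2 (-0.98 to -0.18) lies below 0 without a call, and the intervals of Jun, Junb, Jund and Batf cross 0.

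Summed by family, the Fos-type genes had 495, 459 and 328 CPM in BcorΔE9-10 and 267 and 154 CPM in BcorWT, which did not overlap. The Jun-type genes had 771, 545 and 463 CPM against 712 and 415 CPM, which did. Most of the Fos-type difference is that of Fos itself. The summed level of Batf, Batf3 and Atf3 was 5.38 to 7.56 CPM against 5.04 and 7.24 CPM.

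Because the members varied together between libraries of the same genotype their counts were also set against each other within each library. Such a ratio does not depend on library size or scaling, is compared here between libraries only and was not tested. Fos counts over Jun counts were 0.566, 0.810 and 0.623 in BcorΔE9-10 and 0.215 and 0.238 in BcorWT. The ratio was nearly the same in both BcorWT libraries although Fos itself was 1.54-fold higher in library 1 than in library 2, and every mutant library stood above both. The mean was 0.666 ± 0.128 (SD, n = 3) against 0.226 ± 0.0161 (SD, n = 2).

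The same separation was seen against the other Jun genes, though each of these ratios carries the difference in Fos itself. How often ratios of other gene pairs separate was not counted. Fos over Junb was 3.15, 3.92 and 2.37 against 0.769 and 0.785, and Fos over Jund was 4.51, 6.88 and 5.32 against 1.49 and 2.11. Fosb over Jun was 0.185, 0.198 and 0.159 in BcorΔE9-10 and 0.114 and 0.0743 in BcorWT. Fosb thus overlapped between the groups as a level but not as a ratio to Jun. Fosl2 over Fos was 0.934 and 0.900 in BcorWT and 0.152, 0.133 and 0.311 in BcorΔE9-10, and with Fos as its denominator it also carries the difference in Fos. This ratio was nearly the same in both BcorWT libraries, and every mutant library was below them.

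**Figure D3:**
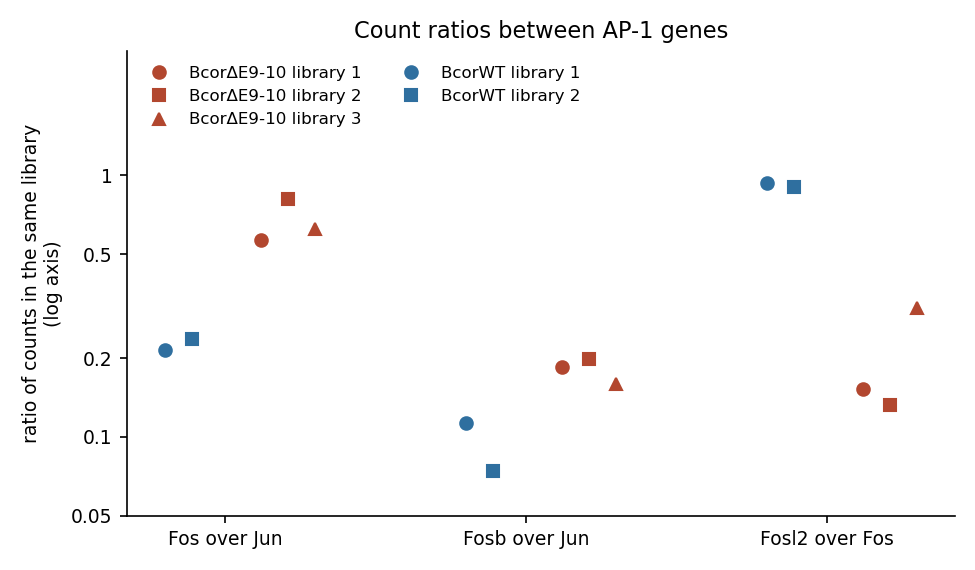
Ratios of counts between AP-1 genes of the same library on a log axis, with BcorΔE9-10 in red and BcorWT in blue. The mutant libraries lie above both BcorWT libraries for Fos over Jun (0.566 to 0.810 against 0.215 and 0.238) and Fosb over Jun, and below them for Fosl2 over Fos.

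Variation within a genotype was shared by the members. All 7 tested members were higher in BcorWT library 1 than in library 2, by 1.54-fold for Fos, 1.57-fold for Junb, 1.60-fold for Fosl2 and Batf, 1.71-fold for Jun, 2.18-fold for Jund and 2.60-fold for Fosb. Of all genes tested, 47.6% were higher in BcorWT library 1, with a median log2 difference of -0.03. Among the mutant libraries, library 1 had the highest level of 6 of the 7 members, against 32.5% of all genes, and Fosl2 was highest in library 3. Mutant library 3 had the lowest level of Fos, Fosb, Jun and Jund and library 2 that of Fosl2, Junb and Batf.

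Of other immediate-early genes, which answer the same signals as Fos, 13 of 15 tested were higher in BcorWT library 1 (median log2 difference 0.64). The same was so for 9 of 10 neutrophil markers, 9 of 11 basophil, mast cell and eosinophil markers, 7 of 8 lymphoid markers, 5 of 6 megakaryocyte markers and 7 of 10 heat shock genes, but for 2 of 10 progenitor markers and 0 of 9 erythroid markers. Between genotypes, limma called 4 of the 15 tested, all 4 higher in BcorΔE9-10, while edgeR called 4 higher and 1 lower and DESeq2 3 higher and 1 lower. They were Myc (log2 fold change 2.26, limma adjusted p = 0.00401), the growth regulator, Zfp36 (0.65, 0.0189), whose protein speeds the decay of short-lived messages, Nr4a1 (1.47, 0.0255), a nuclear receptor, and Klf6 (0.68, 0.0462), a zinc finger factor. The median over the 15 was 0.00, equal to that of all genes tested, and ranged from -0.27 to 0.27 when single libraries were left out. The call of Myc was kept in all 15 alternatives, that of Nr4a1 in 12, that of Zfp36 in 11 and that of Klf6 in 8. Without mutant library 1, 1 of the 15 genes was called, without mutant library 2, 2 were, and without BcorWT library 2, 2 were called higher and 4 lower. Egr1, a zinc finger factor induced through serum response factor as Fos is, had 611, 531 and 469 counts against 707 and 261, with a log2 difference of 0.15 (limma adjusted p = 0.786), and Ier2 had 0.00 (0.994). These 2 genes were picked after their values were seen.

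Heat shock genes, which mark cells under protein stress, differed in the opposite direction from Fos. Of the 10 listed, 6 were called lower in BcorΔE9-10, with a median log2 fold change of -0.53 and a summed level of 3188 to 3702 CPM against 4338 to 5459 CPM. Without BcorWT library 1, 2 of the 10 were called lower and the median was -0.36. By adjusted p the calls were led by Hsph1 (-1.32, limma adjusted p = 0.00126), a chaperone cofactor, the mitochondrial chaperone Hspd1 (-0.58, 0.00686), the co-chaperone Dnajb1 (-0.76, 0.0107) and Hspa1b (-1.31, 0.0109), the inducible Hsp70. Hsph1 was called in all 15 alternatives, Hspd1 and Dnajb1 in 14 and Hspa1b in 13. The part of stress responses in the AP-1 levels was not tested.

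The kinases that switch on AP-1, and other lists after them, were then described. Calls in each list stand beside the 10.1% of all tested genes called in either direction. Of 18 tested kinases of the MAPK cascades, 1 was called, Mapk3, which encodes ERK1 and was lower (log2 fold change -0.57, limma adjusted p = 0.00204, called in all 15 alternatives). The median was 0.18, but 0.0096 without BcorWT library 1, 0.093 without mutant library 2 and 0.054 after GC correction. The summed level was 1420 to 1545 CPM against 1696 to 1790 CPM, of which Mapk3 alone made 401 to 470 CPM against 650 and 668 CPM. Fold changes were above 0 for 11 of the 18 kinases and below 0 for 7. Mapk10, the neuronal JNK gene, was at 0 counts in every library. Of 13 tested regulators known to act at the Fos promoter, 2 were called and both were higher. One was Elk4 (0.63, limma adjusted p = 0.0275, called in 11 of 15 alternatives), an Ets protein that joins serum response factor. The other was Crtc2, a coactivator of Creb1, with 24, 85 and 59 counts against 0 and 1, for which the fitted fold change depends on the prior count and is not given. It was called in 11 of 15 alternatives. The median of these regulators was -0.02, but -0.10 without BcorWT library 1, 0.065 without BcorWT library 2 and -0.12 after GC correction. Without BcorWT library 1 neither of them was called by limma, with 2 of the 13 at an unadjusted p under 0.05, and with all libraries edgeR and DESeq2 each called 2.

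Genes that limit AP-1 activity or AP-1 transcripts had a median of 0.27, which was 0.52 without BcorWT library 1 and 0.12 without BcorWT library 2, with 1 of 11 tested called, Zfp36, which is also in the immediate-early list and was not called after GC correction or without mutant library 1, mutant library 2 or BcorWT library 2. edgeR and DESeq2 each called 2 of the 11. Dusp1, a phosphatase that inactivates MAP kinases and a member of both lists, had 2098, 973 and 1045 counts against 1110 and 503 (log2 fold change 0.64, limma adjusted p = 0.146). Transcript ends were searched for ATTTA, the core of AU-rich decay elements. Fos held it 4 times and Jun 3 times in the last 300 bases of the annotated transcript, and 3.9% of 11759 genes held it at least 3 times. At least 1 copy was present in 4 of the 7 tested members and in 37.5% of these tested genes, and the longer form TATTTAT in 3 of the 7 and in 7.93%. Of all 10 members, 6 held ATTTA and 5 TATTTAT. Fosb, the other called member, had no copy of either in this window.

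Of 15 tested zipper proteins outside the 10 members, which can share partners or sites with them, 1 was called, beside 10.1% of all genes tested. It was Nfe2l2 (log2 fold change 0.61, limma adjusted p = 0.0240), which encodes the regulator of the oxidative stress response, and the median was -0.11. Its call was lost in 5 of 15 alternatives, namely with GC correction (with or without the block) and without mutant library 2, mutant library 3 or BcorWT library 1. Of 17 tested textbook AP-1 target genes, 1 was called, Mmp9, which was lower (-0.71, limma adjusted p = 0.0329), with a median of -0.05. The call of Mmp9 was kept in 9 of 15 alternatives and lost with DESeq2, with total counts, after GC correction and without mutant library 2, mutant library 3 or BcorWT library 1. Mmp9 encodes a metalloproteinase stored in neutrophil granules. Of the 10 neutrophil markers 9 had a fold change below 0, with 6 called, and 1, Camp, was above 0 (log2 fold change 0.25). A link between Mmp9 and these markers was not tested. The targets Mmp3, Mmp13 and Timp1 were at 0 counts in every library. When single libraries were left out, the median of the target genes ran from -0.23 to -0.02 and that of the other zipper proteins from -0.21 to 0.036, against 0.00 for all genes. Under scaling by total counts, which shifted the median of all genes to 0.15, the median of the other zipper proteins was 0.03 and that of the target genes 0.096, which was also above 0 with no expression filter (0.105).

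**Figure D4:**
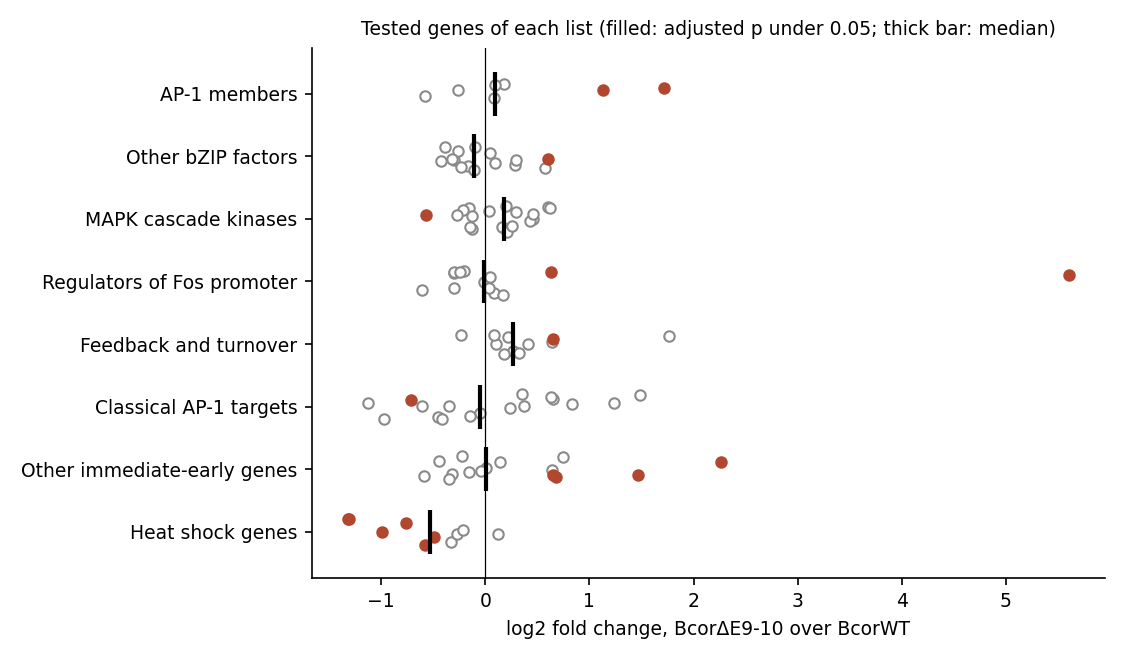
Log2 fold change of BcorΔE9-10 over BcorWT for every tested gene of the AP-1 set and of 7 related lists, filled where the limma adjusted p was under 0.05, with a thick bar at each list's median. Heat shock genes lie mostly below 0 (median -0.53), the other lists have medians between -0.11 and 0.27, and the isolated point at the right is Crtc2, which had 0 and 1 counts in BcorWT.

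The genes whose levels followed those of Fos and Fosb most closely were sought among tested genes whose mean log2 CPM reached 3, by the root mean square difference of their centred log2 CPM profiles over the 5 libraries. Those nearest to Fos were Rgs1 (difference 0.12), a regulator of G protein signalling, Fam204a (0.12) and Fcho2 (0.22), an endocytic adaptor. Rgs1 had 17.1, 16.3 and 9.70 CPM against 5.96 and 4.0 CPM, so that mutant library 3 was lowest within its group and BcorWT library 2 lowest of all, as for Fos. The genes nearest to Fosb were Dusp1 (0.28), Taf2 (0.30), a subunit of the general factor TFIID, and Rgs1 (0.33). Dusp1 had 248, 159 and 122 CPM against 158 and 74.5 CPM, so that its 5 libraries stood in the same order as those of Fosb.

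**Figure D5:**
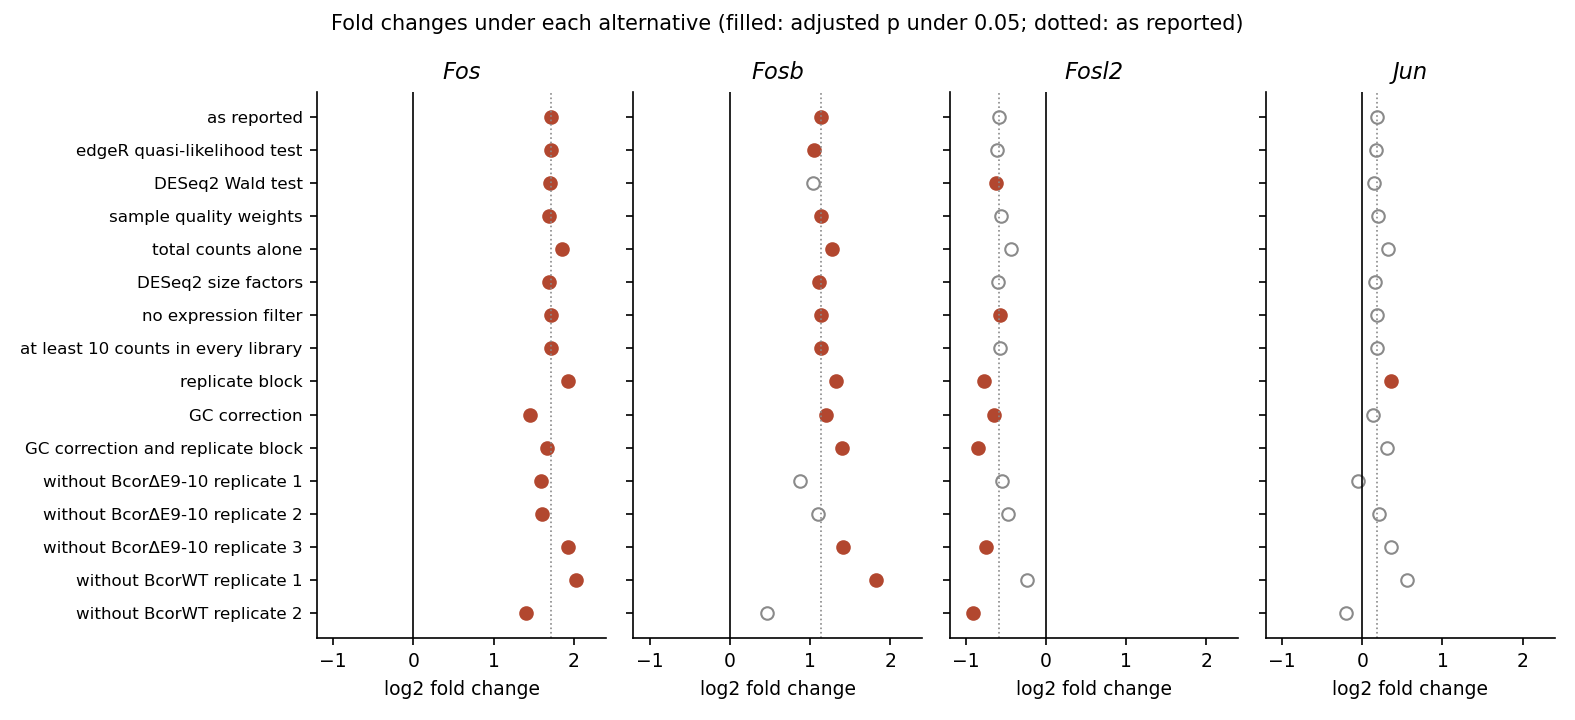
Log2 fold change of Fos, Fosb, Fosl2 and Jun as reported and under 15 alternative analyses, filled where the adjusted p was under 0.05, with a dotted line at the reported value. Fos stays filled between 1.41 and 2.02, Fosb loses its call in 4 alternatives and Fosl2 gains one in 7.

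Markers of some other cell types differed between the genotypes beside Fos and Fosb, although the gate excludes cells that carry surface markers of mature lineages. Of 10 tested neutrophil markers, 6 were called lower in BcorΔE9-10 (median log2 fold change -0.62, or -0.45 without BcorWT library 1 and -0.82 without library 2). Of 11 tested basophil, mast cell and eosinophil markers, 8 were called lower and 1, Gata2, higher (called in all 15 alternatives), with a summed level of 622 to 885 CPM against 1397 to 1719 CPM. Erythroid markers summed to 128 to 327 CPM against 72.7 to 120.0 CPM, with 1 of 9 tested called by limma, Car1, higher (called in 9 of 15 alternatives), against 5 by edgeR. Of these markers limma called 6 higher without mutant library 1 and 0 without mutant library 2 or mutant library 3. Their median log2 fold change of 1.61 was 0.86 without BcorWT library 1 and 2.51 without BcorWT library 2. Mutant library 3 had the most globin counts and the lowest Fos level of its group. No monocyte, megakaryocyte or lymphoid marker was called by limma as reported, by edgeR or by DESeq2, and by limma 2 of 9, 1 of 6 and 4 of 8 tested had an unadjusted p under 0.05. Among the alternatives, up to 2 megakaryocyte markers were called higher and up to 1 monocyte marker lower. The monocyte markers summed to 158 to 213 CPM against 218 to 238 CPM and the megakaryocyte markers to 45.1 to 72.1 CPM against 27.3 to 47.1 CPM, with a median log2 fold change of 0.33 that was 0.76 without BcorWT library 1 and -0.16 without library 2. The lymphoid markers summed to 159 to 186 CPM against 193 to 206 CPM, a sum carried by Nkg7, while 6 of the 8 tested had a fold change above 0. Their median log2 fold change of 1.32 was 2.10 without BcorWT library 1, 0.21 without BcorWT library 2 and -0.14 with at least 10 counts in every library. The T cell marker Cd3e was near 0, at 0 to 3 counts. Of 10 dendritic markers 3 could be tested and 1, Cst3, was called higher, a call kept in 8 of 15 alternatives and lost with edgeR and without each mutant library. Their median log2 fold change of 0.35 was 1.18 without BcorWT library 1, 0.79 with no expression filter and -0.18 with at least 10 counts in every library. Of the 10 progenitor markers 2 were called higher, Kit (1.43, limma adjusted p = 9.82e-05, called in all 15 alternatives) and Myb (0.41, 0.0201, called in 12). Fold changes lay above 0 for 6 of the 10 and below 0 for 4. The median log2 fold change of 0.12 was 0.0086 without BcorWT library 1 and 0.26 without BcorWT library 2. The part of these cells in the levels of the AP-1 genes was not tested.

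The transcript end of Fos was rich in A and T, with a GC content of 30.7% over its last 300 bases, and 8.28% of tested genes were at or below that value (median 43.3%). After removal of a trend of counts on GC content from each library the log2 fold change of Fos was 1.45, and it was still called.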

How the data were processed

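Transcript ends of KL cells from 3 BcorΔE9-10 and 2 BcorWT mice or pools were sequenced with the QuantSeq 3′ method. The labels do not say whether each library came from 1 mouse, so p-values measure the spread between these libraries. The authors trimmed reads, aligned them with HISAT2 to the mm10 build and assigned them to genes with featureCounts of Subread (version 1.5.0-p3 in the submitters' processing notes). What they deposited are raw counts, without normalisation. Options for strand and for reads with several alignments are not given in the sources used here. Symbols came from the GENCODE M21 annotation for 52403 of 52550 genes. Gene coordinates are those of the count table, and 94.97% of spans were identical in that annotation, though that of Fosl1 was not.

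Genes were filtered with filterByExpr (edgeR 4.0.16, at least 10 counts in enough libraries and 15 in total) and libraries were scaled by TMM factors. The genotype effect was fitted by limma-voom (limma 3.58.1) across all 11766 genes, two-sided, with Benjamini-Hochberg adjustment, in R version 4.3.3. limma was used because the methods of the study name it. Alternatives were the quasi-likelihood test of edgeR, DESeq2 (version 1.42.0), library quality weights, 2 other scalings, 2 other filters, a GC correction (lowess span 0.3), a replicate block, both of these together, and omission of each library in turn. Where a single BcorWT library was left, it was assumed to vary like the mutant libraries. CPM values were computed here as counts per 1e+06 TMM-scaled counts, and the limit for a count of 0 was 3 counts, which covers counting error alone because the sources name no molecular identifiers. Promoter sequences are those of RefSeq. The procedure was tested on simulated data.

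The members, the other gene lists and the tests were chosen with earlier results of these data known. The genes named were all 10 members, up to 4 called genes of each list by adjusted p, list genes at 0 in every library, and the 3 nearest profiles of each called member. Genes outside this rule are given where a result turns on them.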

Additional observations from a re-analysis of the deposited data

How the results depend on the processing

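Fos was called in every one of the 15 alternatives, with a highest adjusted p of 0.000796. Of 105 comparisons of a member's log2 fold change with an alternative, 84 kept direction and side of the threshold, 9 gained a call, 4 lost one and 8 changed sign, and the causes were not tested. Leaving out each library in turn gave 1 to 3 members called and 558 to 1200 genes called over all genes, against 1189 with all libraries. The count was 774 without mutant library 2, 723 without mutant library 3 and 558 without BcorWT library 1. In these fits the log2 fold change ran from 1.41 to 2.02 for Fos, 0.46 to 1.83 for Fosb, -0.91 to -0.24 for Fosl2, -0.20 to 0.56 for Jun, -0.58 to 0.060 for Junb, -0.46 to 0.65 for Jund and -0.24 to 0.42 for Batf. Scaling by total counts alone gave 1210 genes higher and 197 lower, against 708 and 481, and left the calls of the members as they were. With a replicate block 4 members were called (Fos, Fosb, Fosl2 at -0.77 and Jun at 0.35, limma adjusted p = 0.0353), Batf was at -0.030, Jun was not called when the block was joined with the GC correction (0.30, limma adjusted p = 0.0903), and the count over all genes was 1454, with 1087 in common with the unblocked fit. Only numbers 1 and 2 occur in both groups, and the deviations of these 2 pairs from the group means correlated by 0.057 and 0.067 across genes. Deviations of the 2 BcorWT libraries mirror each other, so these correlations cannot decide whether a shared number marks a pairing. Of 225 list medians under an alternative, 182 moved by less than the spread between libraries and 43 by more. Depth limits Batf, with 26 to 54 counts, and Fosl1, Batf3 and Atf3, which were not tested.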
